A study of Sus scrofa with 2 samples.

Results

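Immediate early genes were examined in endometrium, the inner lining of the uterus, of 2 Yorkshire sows slaughtered at day 18 of pregnancy (YK18). The 10 members, FOS, FOSB, JUN, JUNB, ATF3, EGR1, IER2, IER3, DUSP1 and ZFP36, were chosen by their names after values of these libraries had been seen, so levels and differences are given as a description with no test. Of the 10 members, 9 were listed among the 11063 gene symbols that could be matched to the table. No row could be matched to FOSB, which was not analysed here. The deposited data hold 43699 rows, of which 38222 are mRNA rows. Only 16072 of the 43699 rows could be matched to a symbol, so a gene without a matched row may still have one under another accession. The single row of ZFP36 was listed at 0 in both libraries, which left 8 members with values. Each library came from 1 pig, both pigs were artificially inseminated, and the sources name no further treatment. The uterine horns were flushed with phosphate buffer after slaughter, and the tissue was frozen in liquid nitrogen. The time between slaughter and freezing is not given in the sources used here, and its part in the values below was not tested. The tissue was sequenced in bulk, so fewer cells of a type and less RNA per cell cannot be told apart.

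Immediate early genes are transcribed within minutes of a stimulus, without any need for new protein synthesis, because the factors that switch them on are already present and are activated by kinases such as the MAP kinases. FOS and JUN proteins pair through a leucine zipper into AP-1, a transcription factor that acts on later genes. The response is brief, since products such as DUSP1 inactivate MAP kinases and ZFP36 speeds the decay of short-lived mRNAs. In the uterus these genes are known to respond to estrogen, growth factors, stretch and injury, and in many tissues they also respond to dissection.

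Levels were taken as deposited, in reads per kilobase and per 1000000 reads (RPKM). Over all rows they summed to 4279448 RPKM in replicate 1 and 4272865 RPKM in replicate 2, so a level is not a share of 1000000. Ratios between the libraries are given as replicate 2 over replicate 1. The RPKM values were divided by 7466979 reads in replicate 1 and 7023108 reads in replicate 2, totals read off the spacing of the lowest values. The same spacing gave the smallest number of reads behind each value, of which the true number is a whole multiple. The 95% exact intervals of a ratio come from these smallest reads, so they are too wide where the true number is larger. They cover counting error only, and say nothing of how far a further pig would differ.

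All 8 members with values were higher in replicate 2. FOS, JUNB and DUSP1 differed most, by 4.78-fold, 2.61-fold and 2.44-fold in RPKM, and JUN least, by 1.17-fold. On the log2(RPKM + 1) scale the median ratio of the 8 members was 0.84, against 0.07 over the 6474 genes with a mean of at least 1 RPKM. Of these 6474 genes, 58.0% were higher in replicate 2. Of the 8 members, 3 were at least 2-fold higher in replicate 2, where 7.48% of all genes were, and no member was at least 2-fold lower, where 3.17% of genes were. Either way, 10.6% of genes were at least 2-fold apart. At a threshold of 1.5-fold, 6 of the 8 members were higher in replicate 2, and 15.6% of genes were. Among the 3934 genes with a mean of at least 20 RPKM, a level that all 8 members reached, 56.3% were higher in replicate 2 and 2.95% at least 2-fold higher.

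**Figure D1:**
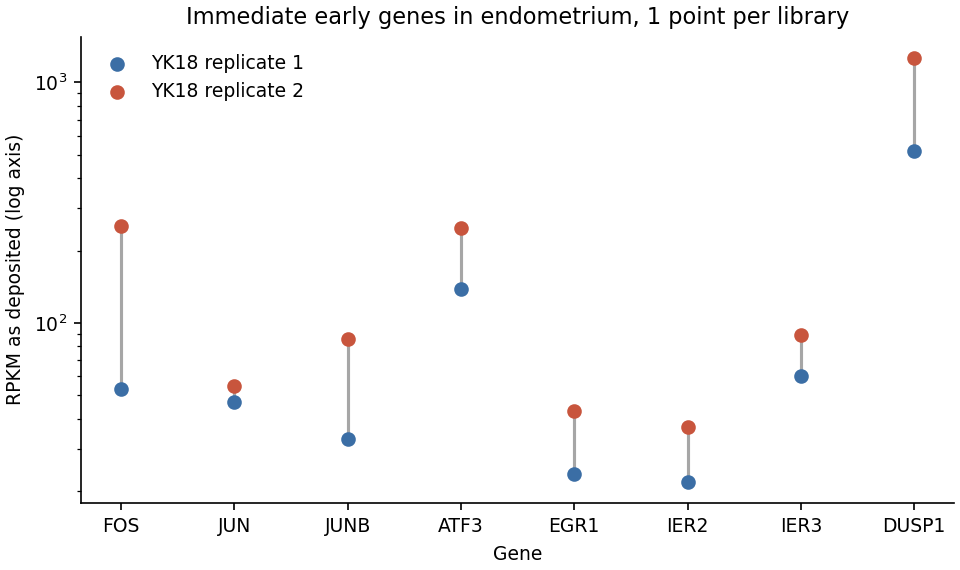
RPKM of each immediate early gene with values, on a log axis, in YK18 replicate 1 (blue) and replicate 2 (red), with a line joining the libraries of a gene. The red point lies above the blue one for all 8 genes, and the gap is widest for FOS, at 52.9 and 252.9 RPKM.

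The AP-1 subunits were not alike in their differences. FOS, which needs a partner such as JUN to bind DNA, was at 52.9 RPKM in replicate 1 against 252.9 RPKM in replicate 2. Replicate 2 was thus the high library, and the mean of 152.9 ± 141.4 RPKM (SD, n = 2) had an SD nearly as large as itself. The values came from at least 113 and 508 reads, and the ratio of 4.78 had a counting interval of 3.89 to 5.91. Of the 6474 genes, 51 had a log2(RPKM + 1) ratio as high as the 2.24 of FOS, which is 0.788%. FOS moved from percentile 55.2 of the genes above 0 in both libraries in replicate 1 to percentile 76.3 in replicate 2.

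JUN, the partner of FOS in the classical AP-1 dimer, was at 47.0 RPKM in replicate 1 against 54.8 RPKM in replicate 2, a mean of 50.9 ± 5.51 RPKM (SD, n = 2). With 425 and 466 reads, its ratio of 1.17 had a counting interval of 1.02 to 1.33. JUN was the member with the smallest difference, and 35.6% of all genes had a ratio as high. JUNB, a JUN relative that is a weaker activator than JUN at many promoters, was at 32.9 RPKM in replicate 1 against 85.9 RPKM in replicate 2, from 461 and 1132 reads. Its ratio of 2.61 (2.34 to 2.92) was thus larger than that of JUN, and the intervals did not overlap.

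Ratios between members within a library do not depend on how the libraries were scaled. The RPKM of FOS was 1.13 times that of JUN in replicate 1 and 4.62 times in replicate 2. JUNB was at 0.700 times the RPKM of JUN in replicate 1 and at 1.57 times in replicate 2, so the order of JUN and JUNB was exchanged. FOS over JUNB differed less, at 1.61 in replicate 1 and 2.94 in replicate 2.

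ATF3, a stress-induced factor of the ATF/CREB family that can also pair with JUN proteins, was at 138.4 RPKM in replicate 1 against 247.6 RPKM in replicate 2. At 193.0 ± 77.3 RPKM (SD, n = 2) it had the highest mean of the members after DUSP1. Its ratio was 1.79 (1.60 to 2.00), from at least 527 and 887 reads.

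EGR1, a zinc finger factor induced through serum response elements, was at 23.5 RPKM in replicate 1 against 42.8 RPKM in replicate 2. Its ratio of 1.82 (1.57 to 2.12), from 278 and 476 reads, was close to that of ATF3, and their intervals overlapped. IER2, a small nuclear protein, had the lowest mean, with 21.9 RPKM in replicate 1 against 36.7 RPKM in replicate 2 and a ratio of 1.68 (1.49 to 1.89). IER3, which modulates cell survival, was at 60.0 RPKM in replicate 1 against 89.1 RPKM in replicate 2, with a ratio of 1.48 (1.30 to 1.70). For these 4 genes, from ATF3 to IER3, the difference was smaller than 2-fold, and between 10.1% and 16.5% of all genes had a ratio as high.

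DUSP1, the nuclear phosphatase that switches off MAP kinases, had the highest level of the members in both libraries. It was at 517.7 RPKM in replicate 1 against 1264 RPKM in replicate 2, a mean of 891 ± 528 RPKM (SD, n = 2). The ratio of 2.44 (2.27 to 2.63) rested on at least 1067 and 2451 reads. Relative to the ratio, this interval was the narrowest of the members. Among genes above 0 in both libraries, DUSP1 was at percentile 86.8 in replicate 1 against 94.4 in replicate 2. ZFP36, which binds AU-rich elements of short-lived mRNAs, was listed at 0 in both libraries. BRAF, which most cells use, was also listed at 0 in both, so this value is no sign of absence.

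**Figure D2:**
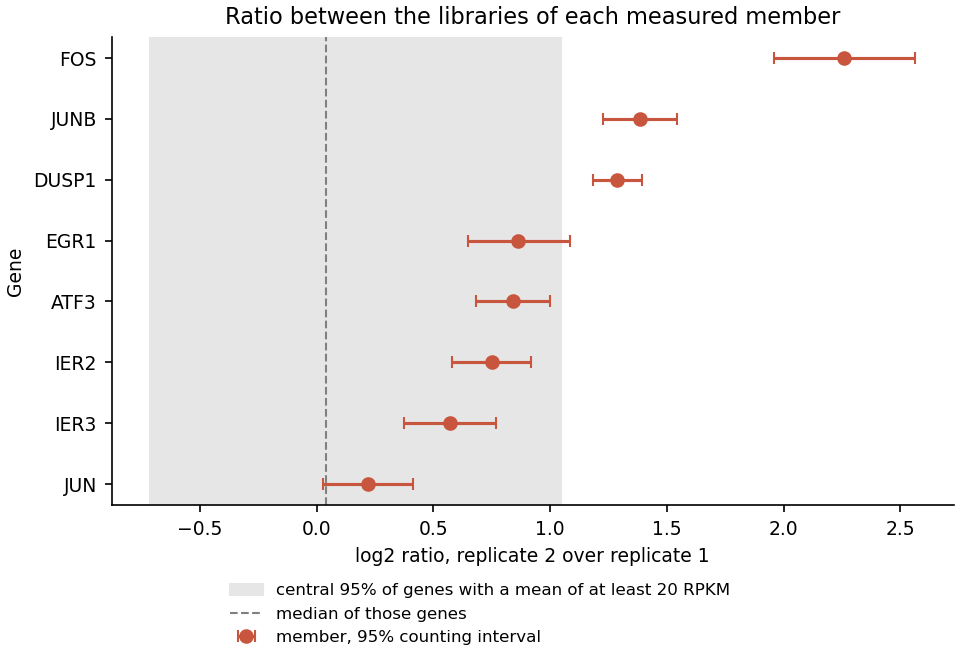
log2 ratio of reads as a share of the library, replicate 2 over replicate 1, for the 8 members with values, with the 95% counting interval as bars. The grey band holds the central 95% of the 3934 genes with a mean of at least 20 RPKM, from -0.71 to 1.05 on the log2(RPKM + 1) scale. The points of FOS, JUNB and DUSP1 lie to the right of the band, and those of the other members lie within it.

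By mean level the members came in the order DUSP1, ATF3, FOS, IER3, JUNB, JUN, EGR1 and IER2. DUSP1 was above every other member in both libraries, and EGR1 and IER2 held the last places in both. Between them the order differed. FOS was below IER3 in replicate 1, with the 4th highest level of the 8, and above ATF3 in replicate 2, with the 2nd highest. The ranges of ATF3 and FOS overlapped, as did those of FOS and IER3, of IER3 and JUNB, of JUNB and JUN, and of EGR1 and IER2. Those of DUSP1 and ATF3, and those of JUN and EGR1, did not. The order of levels between genes also depends on the lengths by which the authors divided. The smallest length that gave whole reads was 276 nt for DUSP1, 286 nt for FOS, 1211 nt for JUN and 2848 nt for IER2. The lengths that the authors used may be whole multiples of these. They therefore do not show which of these genes was divided by a shorter length. The ratio of a gene between the libraries does not depend on its length.

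**Figure D3:**
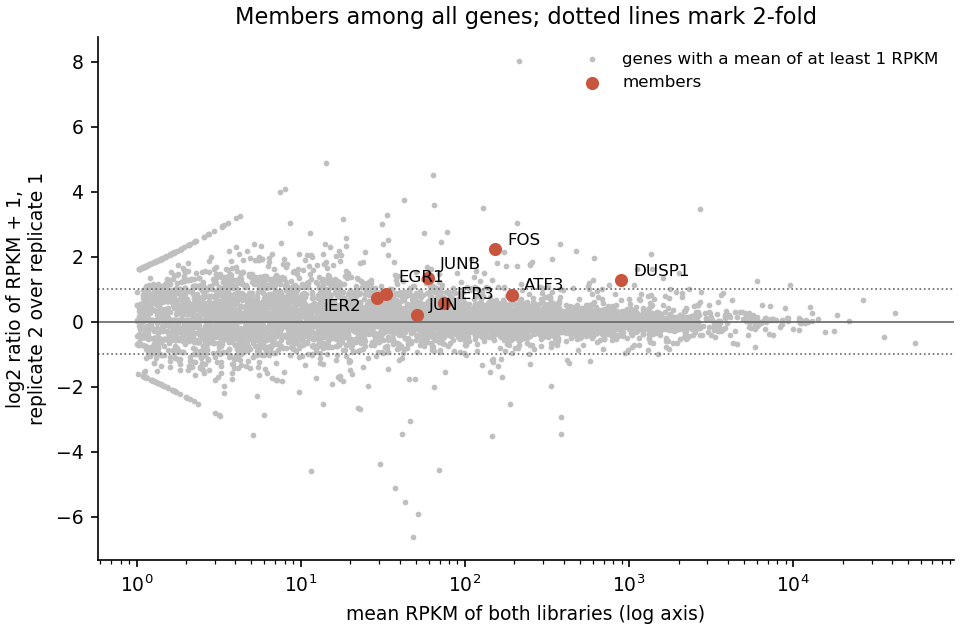
log2 ratio of RPKM + 1, replicate 2 over replicate 1, against the mean RPKM on a log axis, for the 6474 genes with a mean of at least 1 RPKM (grey) and the 8 members (red). Members lie between means of 29.3 and 891 RPKM, all above a ratio of 0, and FOS, JUNB and DUSP1 lie above the dotted line at 2-fold.

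The spread between the libraries was wider for genes of low level, which bears on how a 2-fold difference reads. Between 1 and 20 RPKM, 14.5% of 2540 genes were at least 2-fold higher in replicate 2. Between 20 and 100 RPKM, where JUNB, JUN, EGR1, IER2 and IER3 lay, 4.64% of 1359 genes were, and between 100 and 1000 RPKM, where FOS, ATF3 and DUSP1 lay, 2.09% of 2061 genes were.

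Other immediate early genes, AP-1 subunits and feedback inhibitors were taken from lists of names, and not all of the listed genes are immediate early genes. In 4 such lists together, 65 of 88 names were listed, 55 of them with a mean of at least 1 RPKM. The 88 names include CCN1 and CCN2, other names of CYR61 and CTGF, which are also in the lists. Of these 55, 46 were higher in replicate 2 and 9 lower, 10 were at least 2-fold higher and none was at least 2-fold lower, with a median log2(RPKM + 1) ratio of 0.45. Over all genes 58.0% were higher in replicate 2, 7.48% at least 2-fold higher and 3.17% at least 2-fold lower, and the median was 0.07. These lists were written with results of the same libraries known.

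Of the other AP-1 subunits, 6 of 14 names were listed, 5 of them with a mean of at least 1 RPKM. ATF7, an ATF2 relative, was the highest, at 208.5 RPKM in replicate 1 against 154.4 RPKM in replicate 2, and was the only one of the 5 that was lower in replicate 2. MAFK, a small MAF protein without an activation domain, was at 69.7 and 95.7 RPKM, and BATF, an AP-1 factor of immune cells, at 6.56 and 8.38 RPKM from 5 and 6 reads. FOSL1, a FOS relative named here after its value had been seen, was the only one at least 2-fold higher in replicate 2, at 1.56 and 5.96 RPKM from 5 and 18 reads. FOSL2, JUND and ATF2 had no matched row and were not analysed here.

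Of 24 other immediate early transcription factors, 17 had a mean of at least 1 RPKM, and 15 of these were higher in replicate 2. The highest were the ID proteins, which hold basic helix-loop-helix factors off DNA, and BHLHE40, a repressor of the clock and stress responses. ID2 was at 473.3 RPKM in replicate 1 against 635.2 RPKM in replicate 2, BHLHE40 at 449.6 and 647.0 RPKM, and ID1 at 253.1 and 507.1 RPKM. The log2(RPKM + 1) ratio of ID1 was 1.00 when rounded and just under 2-fold. NR4A3, an orphan nuclear receptor, was at 2.77 and 8.83 RPKM from 5 and 15 reads, and the ratio of 3.19 had a wide interval of 1.10 to 11.2. On the log2(RPKM + 1) scale it and NFIL3, at 2.25 and 5.71 RPKM, were the 2 factors at least 2-fold higher in replicate 2. That scale understates the difference of low genes, and EGR2, at 1.61 and 4.18 RPKM from 9 and 22 reads, was at 0.99 on it. NFIL3 and EGR2 are named here after their values had been seen.

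Feedback inhibitors and mRNA decay factors, the brakes of the response, differed by gene. Of 26 names 18 had a mean of at least 1 RPKM, 14 of which were higher in replicate 2, and the median log2(RPKM + 1) ratio was 0.37. The MAP kinase phosphatases DUSP4, DUSP5 and DUSP10 were at least 2-fold higher in replicate 2, as DUSP1 was. DUSP5 was at 29.8 and 62.7 RPKM, with a ratio of 2.10 (1.63 to 2.74), DUSP4 at 7.34 and 17.9 RPKM with a ratio of 2.44 (1.58 to 3.84), and DUSP10 at 8.21 and 18.1 RPKM with a ratio of 2.20 (1.39 to 3.55). DUSP6, the cytoplasmic phosphatase of ERK, went the other way, at 506.8 RPKM in replicate 1 against 428.3 RPKM in replicate 2. DUSP1 and DUSP6 were thus at about the same RPKM in replicate 1, with a quotient of 1.02, and at a quotient of 2.95 in replicate 2. BTG1, a partner of the deadenylase complex, was at 597.6 and 552.0 RPKM, and NFKBIA, the inhibitor of NF-kappa-B, at 479.7 and 637.1 RPKM.

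Of 24 names of secreted and other immediate early products, 15 had a mean of at least 1 RPKM. Of these 15, 13 were higher in replicate 2, and the median log2(RPKM + 1) ratio was 0.66. The names CCN1 and CCN2 stand for the same genes as CYR61 and CTGF and had no symbol in the annotation. HBEGF, an EGF receptor ligand known for its part in embryo attachment, was at 45.0 RPKM in replicate 1 against 173.1 RPKM in replicate 2. Its ratio of 3.85 (2.72 to 5.55), from at least 42 and 152 reads, was the largest among the 55 genes of these 4 lists, and its interval overlapped that of FOS. RHOB, a small GTPase, was at 89.5 and 186.2 RPKM, PLK3, a stress kinase, at 54.6 and 113.4 RPKM, and LIF, a cytokine of implantation, at 4.01 and 11.7 RPKM from at least 8 and 22 reads. These 4 genes were the ones at least 2-fold higher in replicate 2.

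The most abundant products did not share one direction. PTGS2, the inducible prostaglandin synthase, was at 1316 RPKM in replicate 1 against 1621 RPKM in replicate 2, a ratio of 1.23 (1.18 to 1.29). THBS1, a matrix glycoprotein, was at 845 and 1517 RPKM, a ratio of 1.79 (1.65 to 1.96). CTGF, a matricellular growth factor and target of TGF beta and YAP, was lower in replicate 2, at 1557 and 1088 RPKM, a ratio of 0.699 (0.663 to 0.737).

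**Figure D4:**
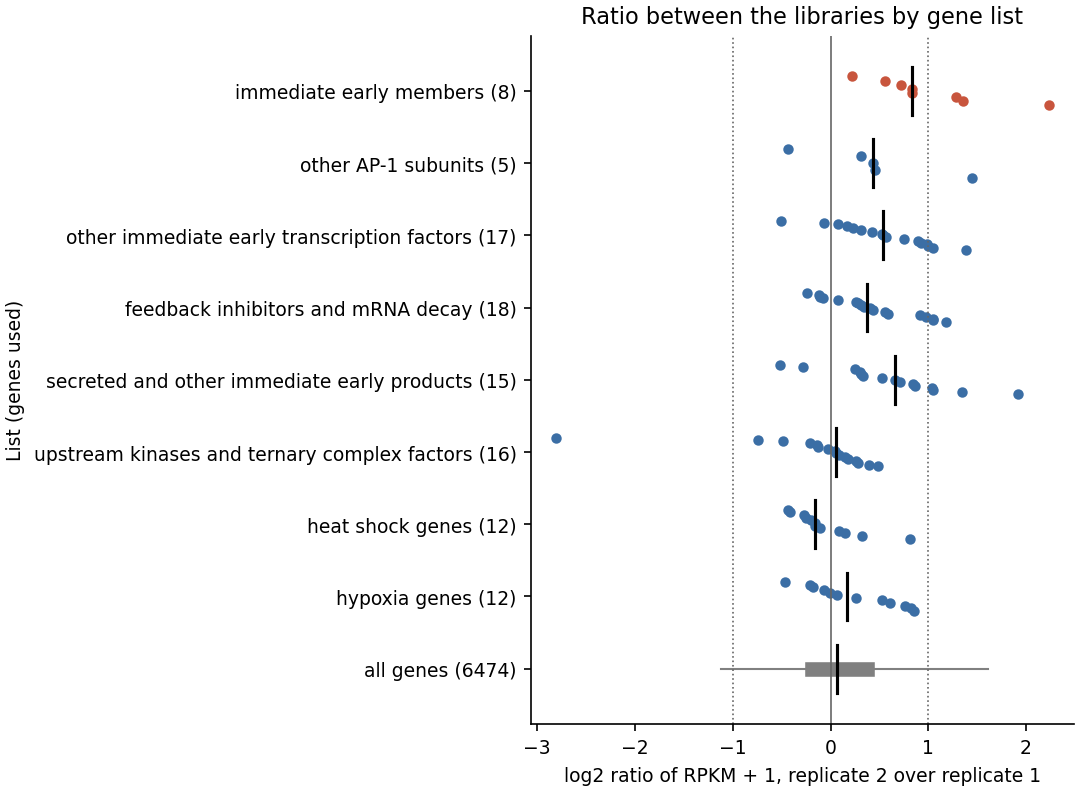
log2 ratio of RPKM + 1, replicate 2 over replicate 1, of each gene with a mean of at least 1 RPKM in the members (red) and in 7 lists of related genes (blue), with the number of genes in brackets and the median as a black bar. For all genes the thick bar spans the central 50%, the thin line the central 95%, and the median is 0.07; the members' median is 0.84 and that of the heat shock genes -0.16.

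The kinases and factors that act before the immediate early genes differed little between the libraries. Of 38 names, 16 had a mean of at least 1 RPKM, with 9 higher and 7 lower in replicate 2 and a median log2(RPKM + 1) ratio of 0.05, which turned to -0.02 when the libraries were scaled to a median ratio of 1. EP300, an acetyltransferase that co-activates AP-1, was at 1754 RPKM in replicate 1 against 1518 RPKM in replicate 2, MAP3K1, a kinase above JNK, at 1128 and 1021 RPKM, and NRAS, a small GTPase above ERK, at 797 and 905 RPKM. None was at least 2-fold higher in replicate 2. The only one at least 2-fold lower was ARAF, named here after its value had been seen, with 7 reads in replicate 1 and listed at 0 in replicate 2.

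Heat shock genes encode chaperones, some abundant in all cells and some induced by stress. Of 12 with a mean of at least 1 RPKM, 8 were lower in replicate 2, where 58.0% of all genes were higher. The median log2(RPKM + 1) ratio of the 12 was -0.16. All 8 that were lower had a mean of at least 1000 RPKM. Of the 514 genes at that level, 47.9% were higher in replicate 2, and their median ratio was -0.01. HSPA5, the chaperone of the endoplasmic reticulum, was at 5629 RPKM in replicate 1 against 5038 RPKM in replicate 2, DNAJA1, a co-chaperone, at 3998 and 3320 RPKM, and HSP90AA1, the inducible HSP90, at 3183 and 2388 RPKM. The 4 that were higher in replicate 2 are named here after their values had been seen. DNAJB1 and HSPA6, both induced by stress, were at 172.1 and 190.5 RPKM and at 14.3 and 15.2 RPKM, HSP90AB1 was at 8.99 and 11.5 RPKM, and HSPA1L was at 0.774 and 2.12 RPKM from 7 and 18 reads. HSPA1A and HSPA1B had no symbol in the annotation and were not analysed here. The RPKM of FOS was 0.0214 times that of HSPA8, the constitutive HSP70, in replicate 1 and 0.110 times in replicate 2.

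Of the hypoxia genes, 12 had a mean of at least 1 RPKM, with 7 higher and 5 lower in replicate 2 and a median log2(RPKM + 1) ratio of 0.16. HIF1A, the oxygen-regulated factor itself, was at 1805 RPKM in replicate 1 against 1802 RPKM in replicate 2. PGK1, a glycolytic enzyme, was at 1315 and 1136 RPKM, and ADM, the vasodilator adrenomedullin, at 635 and 763 RPKM. None of the 12 was at least 2-fold apart, and the share that was higher in replicate 2, 58.3%, was about that of all genes, 58.0%. At a threshold of 1.5-fold, 4 of the 12 were higher in replicate 2 and 0 lower, where 15.6% of all genes were higher. These 4 are named here after their values had been seen. VEGFA was at 476.0 RPKM in replicate 1 against 809.7 RPKM in replicate 2, and EGLN3 at 32.6 and 59.6 RPKM. HK2 was at 18.6 and 33.7 RPKM, and PDK1 at 8.06 and 12.8 RPKM from 8 and 12 reads.

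Markers of other cells also differed between the libraries. All 9 skeletal muscle genes with a mean of at least 1 RPKM were at least 2-fold lower in replicate 2, where 3.17% of all genes were. CKM, MYH1 and TNNC1 were below 1 RPKM in replicate 2, so they reached that mean only through replicate 1. MYLPF rested on at least 27 and 2 reads. TNNC2 rested on at least 3 and 1 reads, and its ratio of 0.354 had a counting interval of 0.00675 to 4.41. The list summed to 672.8 RPKM in replicate 1 against 45.3 RPKM in replicate 2, with TNNT1, TNNT3 and MYL2 listed at 0 in both. The listed erythrocyte genes summed to 3556 and 8462 RPKM, nearly all of it HBB, beta-globin, with ALAS2 listed at 0 in both. Leukocyte genes summed to 1098 and 1646 RPKM, and 6 of 8 were higher in replicate 2 (5 of 8 when scaled to a median ratio of 1). Over all genes 58.0% were higher, and 49.3% when scaled in this way. PTPRC, the pan-leukocyte CD45, was at 526.1 and 845.5 RPKM. The 2 leukocyte genes that were lower in replicate 2 were CD163, at 34.7 and 20.8 RPKM, and MS4A1, at 4.71 and 3.34 RPKM. IFNG, which the pig conceptus secretes at this stage, was at 681.6 RPKM in replicate 1 against 89.1 RPKM in replicate 2. It made up nearly all of the trophectoderm list, which summed to 700.6 and 103.4 RPKM with ELF5 and GATA3 listed at 0 in both. TFAP2C, the other gene of that list with a mean of at least 1 RPKM, was at 17.5 and 14.1 RPKM. Its ratio of 0.802 had a counting interval of 0.527 to 1.21. CDX2, below that mean, was at 1.46 and 0.222 RPKM from 7 and 1 reads. The part of these cells in the values of the members was not tested.

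The epithelial list summed to 12197 RPKM in replicate 1 against 11231 RPKM in replicate 2, with KRT8 listed at 0 in both. In it, 4 of 6 genes were higher in replicate 2 (3 of 6 when scaled to a median ratio of 1), near the shares of all genes, 58.0% and 49.3%. PGR and ESR1, the steroid receptors of the uterus, were both lower in replicate 2, at 530.9 and 434.2 RPKM and at 188.2 and 140.1 RPKM, in a list of receptors and patterning genes that summed to 797.5 and 636.2 RPKM. Stromal genes summed to 69904 and 45289 RPKM, and 3 of 5 were higher in replicate 2, also near the 58.0% of all genes. COL3A1, by far the largest part, was lower in replicate 2, at 67098 and 42857 RPKM, as was LUM, at 2122 and 1224 RPKM. VIM was higher, at 19.5 and 24.9 RPKM, as was DCN, at 211.0 and 272.5 RPKM. THY1, a surface protein of fibroblasts, was at least 2-fold higher in replicate 2, at 452.4 and 910.2 RPKM. Endothelial genes summed to 6539 and 6210 RPKM. Smooth muscle genes summed to 125.0 and 113.3 RPKM, with ACTA2, CNN1 and MYLK listed at 0 in both. Of the genes with a mean of at least 1 RPKM in the epithelial, receptor and patterning, stromal, smooth muscle and endothelial lists, only THY1 was at least 2-fold apart. The stromal gene COL1A2, below that level, was at 1.37 RPKM in replicate 1 and listed at 0 in replicate 2.

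**Figure D5:**
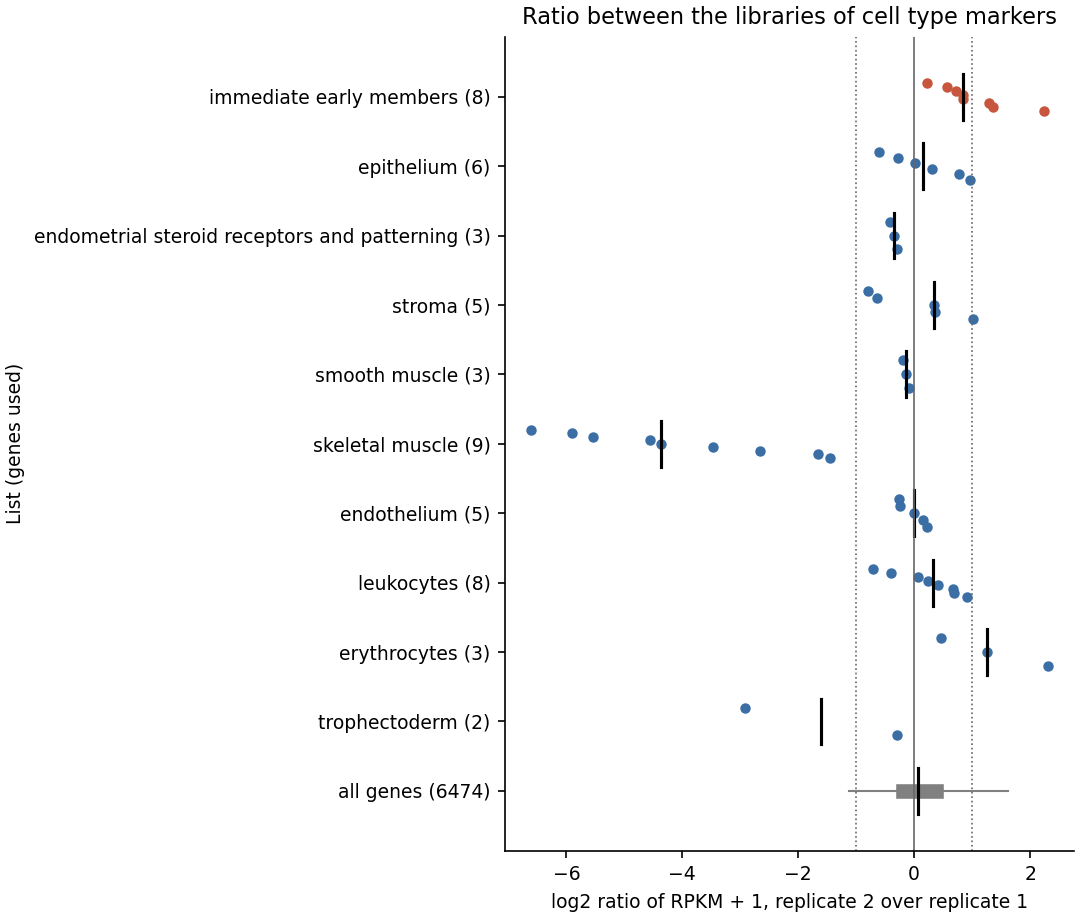
log2 ratio of RPKM + 1, replicate 2 over replicate 1, of each cell type marker with a mean of at least 1 RPKM (blue) beside the members (red), with the number of genes in brackets and the median as a black bar; all genes are drawn as the central 50% (thick) and 95% (thin). Skeletal muscle genes lie lowest, with a median of -4.37, and erythrocyte genes highest of the marker lists, with a median of 1.25.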

How the data were processed

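RNA-seq libraries of endometrium from 2 YK18 pigs, 1 each, were analysed. Samples were grouped by their labels. The authors counted reads with HTSeq 0.6.1 and deposited RPKM values per transcript, with 1 column per library. Aligner and genome build are not given in the sources used here.

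Rows were matched to symbols through the RefSeq accessions of Sscrofa11.1, ignoring version numbers (16072 of 43699 rows), and rows of a symbol were summed. No coordinates or gene sequences were used. Members and gene lists were chosen with earlier results of these data known. Of each pathway list, the 3 highest genes were named, and those at least 2-fold apart with a mean of at least 5 RPKM. HSPA8, BRAF and the cell type markers given with values were picked with those values in view. Ratios used a pseudocount of 1 and a mean of at least 1 RPKM. Reads were taken at the smallest length, up to 20000 nt, that gave whole reads in both libraries within a tolerance of 1e-04 reads, which was found for all 168 rows above 0 in the lists. This step was tested on simulated data. With 1 condition no test was run. The alternatives were other pseudocounts, filters, thresholds, scalings and row choices, and each replicate left out. Python 3.11.15, numpy 2.4.6, pandas 2.3.3, scipy 1.17.1 and matplotlib 3.10.9 were used.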

Additional observations from a re-analysis of the deposited data

How the results depend on the processing

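No paired analysis was possible because both libraries belong to 1 condition, and with 2 libraries a ratio has no value when either is left out. The 8 measured members were all higher in replicate 2 under each pseudocount, filter and scaling. None of the 75 ratios of single members computed under the alternatives left its counting interval. These intervals come from the smallest possible reads and may be too wide, so staying within them is a weak check. When the version number of the accession had to match, 3 members were left, FOS, JUN and DUSP1, and their median log2 ratio was 1.29 in place of 0.84. The 3 members at least 2-fold apart became 6 at 1.5-fold and 1 at 4-fold. Of all genes, 689 were at least 2-fold apart. This was 357 with a mean of at least 5 RPKM, 237 when both libraries were brought to a sum of 1000000, 237 with matching versions, 1524 at 1.5-fold and 120 at 4-fold. With a mean of at least 20 RPKM, a filter added after seeing the data, it was 157. The share of genes higher in replicate 2, 58.0%, was 49.3% when scaled to a median ratio of 1, also added after seeing the data. Mean levels of 7 of the 8 members left 1 SD when brought to that sum, which lowers every level. The number of members above 0, 8 in both libraries, was also 8 without replicate 1 or without replicate 2. With 2 pigs, the spread between pigs of 1 condition is known only roughly.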
